A study of Mus musculus with 10 samples.

Results

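Fatty acids reach the cells of a tissue through a short chain of proteins, and 9 genes of this chain are described here in cultured fetal testes: Fabp3, Fabp4, Fabp5, Cd36, Gpihbp1, Lpl, Slc27a1, Slc27a3 and Slc27a4. They are 9 of the 24470 gene entries of the count table, taken by their symbols, and all 9 had enough reads to be tested. They were chosen by their known roles with the change of each between inhibitor and vehicle gonads already in view, so that change is given below as a description, without a test.

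Gonads of 5 male C57BL/6 mouse embryos at E12.5 were cultured for 48 h. From each embryo, 1 gonad received 75 µM of a glycogen phosphorylase inhibitor (GPI), which blocks the release of glucose units from glycogen, and the other received the DMSO vehicle. Each gonad was dissected away from the mesonephros and sequenced as a library of its own, which gave 5 vehicle and 5 GPI libraries, named M1 to M5 after the embryo. The inhibitor was in the medium and was not directed at a cell type, and RNA came from whole gonads. Libraries held from 10203679 to 15635322 counts. Normalized counts are read-pair counts scaled to a common library size by the trimmed mean of M values (TMM).

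Triglyceride-rich lipoproteins are too large to leave a capillary. Lipoprotein lipase (Lpl) is made by parenchymal cells, carried across the endothelium by Gpihbp1 and held on its luminal face, where it frees fatty acids. Cd36 and the fatty acid transport proteins of the Slc27a family help move these acids into cells, and the fatty acid binding proteins, small proteins of the cytosol, carry them onward: Fabp4 and Fabp5 in capillary endothelium, Fabp4 also in adipocytes and macrophages, Fabp3 in muscle and other cells that burn fat. Fabp4, Fabp5, Cd36 and Gpihbp1 are called vessel-type here. Fabp3, Lpl and Slc27a1 are called parenchymal, while Slc27a3 and Slc27a4 are known from both compartments and stand apart.

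In the mm10 assembly, Fabp5 (chr3:10012585-10016610, plus strand) and Fabp4 (chr3:10204342-10208576, minus strand) lie in a cluster of binding protein genes, with 191.8 kb between their lowest coordinates. Pmp2, Fabp9 and Fabp12 of the same cluster had 0, 2 and 3 counts in all 10 libraries together. Gpihbp1 lies at chr15:75596658-75598213, Cd36 at chr5:17781690-17888959 and Fabp3 at chr4:130308778-130315463. Lpl (chr8:68880555-68906932) and Slc27a1 (chr8:71568927-71586708) share a chromosome. Slc27a3 lies at chr3:90385233-90389938 and Slc27a4 at chr2:29802680-29817522. Their Entrez identifiers are 11770 (Fabp4), 16592 (Fabp5), 12491 (Cd36), 68453 (Gpihbp1), 14077 (Fabp3), 16956 (Lpl), 26457 (Slc27a1), 26568 (Slc27a3) and 26569 (Slc27a4). No other entry of the table overlapped a member. In the GENCODE annotation Zcchc17, on the opposite strand, shares 81 bases with Fabp3, and reads were counted without regard to strand. Zcchc17 had 274 ± 64.1 normalized counts in vehicle and 277 ± 23.3 in GPI (mean ± SD, n = 5 each), and its log2 fold change of 0.04 ± 0.14 (SE) did not pass the test. Pseudogenes resemble 2 members: Fabp3-ps1 is 99.3% identical to Fabp3 over 402 bases, and 5 pseudogenes are at least 93.6% identical to Fabp5 over 336 to 409 bases. None of these 6 pseudogenes is an entry of the table, so how many reads they share with Fabp3 and Fabp5 was not tested.

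RefSeq promoter entries (GRCm38.p6) matched 5 of the 9 genes, namely Cd36, Fabp3, Slc27a1, Slc27a3 and Slc27a4. Shown are the 250 bases before the start of a vessel-type gene at a like level in both treatments (Cd36, chr5:17835897-17836146, minus strand, a start within the gene's span), of a parenchymal gene with higher counts under GPI (Fabp3, chr4:130308488-130308737, plus strand) and of a transporter known from both compartments (Slc27a3, chr3:90389939-90390188, minus strand). Capitals mark matches, on either strand, to TATAAA (the core of many promoters), to CCAAT (the site of the factor NF-Y), to GGGCGG (Sp factors), to AGGTCA (the core site of nuclear receptors such as the PPARs), to CAGGAAG (ETS factors) or to AGATAA (the site of Gata factors). A pair of AGGTCA sites spaced by 1 base was searched as well, and contains the single site.
Cd36: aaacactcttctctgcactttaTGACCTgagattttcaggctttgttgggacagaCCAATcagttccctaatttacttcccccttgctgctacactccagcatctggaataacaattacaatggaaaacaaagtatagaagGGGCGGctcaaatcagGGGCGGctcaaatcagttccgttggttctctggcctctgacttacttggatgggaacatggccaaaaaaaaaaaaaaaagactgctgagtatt
Fabp3: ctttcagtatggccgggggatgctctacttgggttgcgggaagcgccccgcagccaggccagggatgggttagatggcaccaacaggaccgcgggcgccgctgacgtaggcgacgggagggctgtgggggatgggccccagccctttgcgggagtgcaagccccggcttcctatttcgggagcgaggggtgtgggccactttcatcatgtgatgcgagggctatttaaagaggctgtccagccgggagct
Slc27a3: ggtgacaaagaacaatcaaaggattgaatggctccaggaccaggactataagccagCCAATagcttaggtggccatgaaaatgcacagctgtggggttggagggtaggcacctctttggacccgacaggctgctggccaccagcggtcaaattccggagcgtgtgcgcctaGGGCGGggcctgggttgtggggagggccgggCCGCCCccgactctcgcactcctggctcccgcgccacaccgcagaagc
The Cd36 window holds CCAAT, and also GGGCGG at 2 places, and AGGTCA on the minus strand. The Slc27a3 window holds CCAAT and 1 GGGCGG on each strand, and none of the searched words is found in the Fabp3 window. Of 32851 promoters of 300 bases (250 before the start and 50 after it), 37.4% hold CCAAT, 35.7% GGGCGG, 16.3% AGGTCA, 13.6% TATAAA, 13.3% CAGGAAG, 11.2% AGATAA and 0.0396% the paired AGGTCA sites. The windows of Cd36 and Fabp3 differ in base composition, with 43.2% and 64.8% G or C.

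Among vessel-type genes, Fabp4 and Gpihbp1 were nearly lost from GPI gonads, and Cd36 stayed at a like level. Fabp5 was lower by a smaller factor in 5 of 5 embryos, though by little in M1. Fabp4 had 343, 432, 339, 320 and 341 normalized counts in the vehicle libraries of M1 to M5. In the GPI libraries of the same embryos it had 12.3, 6.49, 9.51, 0 and 5.45. Every GPI library lay far below every vehicle library, and that of M4 held no Fabp4 read, which allows up to 3.16 normalized counts (3 reads, counting error only). The log2 fold change of Fabp4 was -5.72 ± 0.30 (SE), or 52.8-fold lower, and 3 of the 13941 tested genes had a lower value.

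Gpihbp1, the carrier and anchor of lipoprotein lipase on capillary endothelium, had 313, 422, 367, 309 and 341 normalized counts in vehicle libraries M1 to M5. Under GPI it had 14.5, 24.3, 11.4, 7.36 and 21.8. The groups were again far apart, with the lowest vehicle library at 309 and the highest GPI library at 24.3. Its log2 fold change was -4.48 ± 0.20, or 22.3-fold lower, and 32 tested genes had a lower value.

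Fabp5 had 430, 363, 299, 310 and 351 normalized counts in the vehicle libraries, close to Fabp4. Under GPI it had 382, 105, 124, 119 and 204. The GPI library of M1 kept a Fabp5 level within the range of the vehicle libraries, whereas the GPI libraries of M2 to M5 lay below all of them. The log2 ratio within embryos ran from -1.76 in M2 to -0.17 in M1. The log2 fold change was -1.06 ± 0.19 with all embryos and ran from -1.31 (without M1) to -0.88 (without M2) with an embryo left out.

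Cd36, a fatty acid receptor of endothelium, macrophages, platelets and fat cells, had 165, 130, 94.9, 110 and 93.7 normalized counts in vehicle libraries M1 to M5. Under GPI it had 112, 93.2, 129, 125 and 88.3. The ranges overlapped in part, from 93.7 to 165 in vehicle and from 88.3 to 129 in GPI, with GPI lower in 3 embryos and higher in 2. Its log2 fold change of -0.10 ± 0.18 was smaller than the SD of 0.42 between embryos, and it ran from -0.25 (without M3) to 0.00 (without M1) with an embryo left out.

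**Figure D1:**
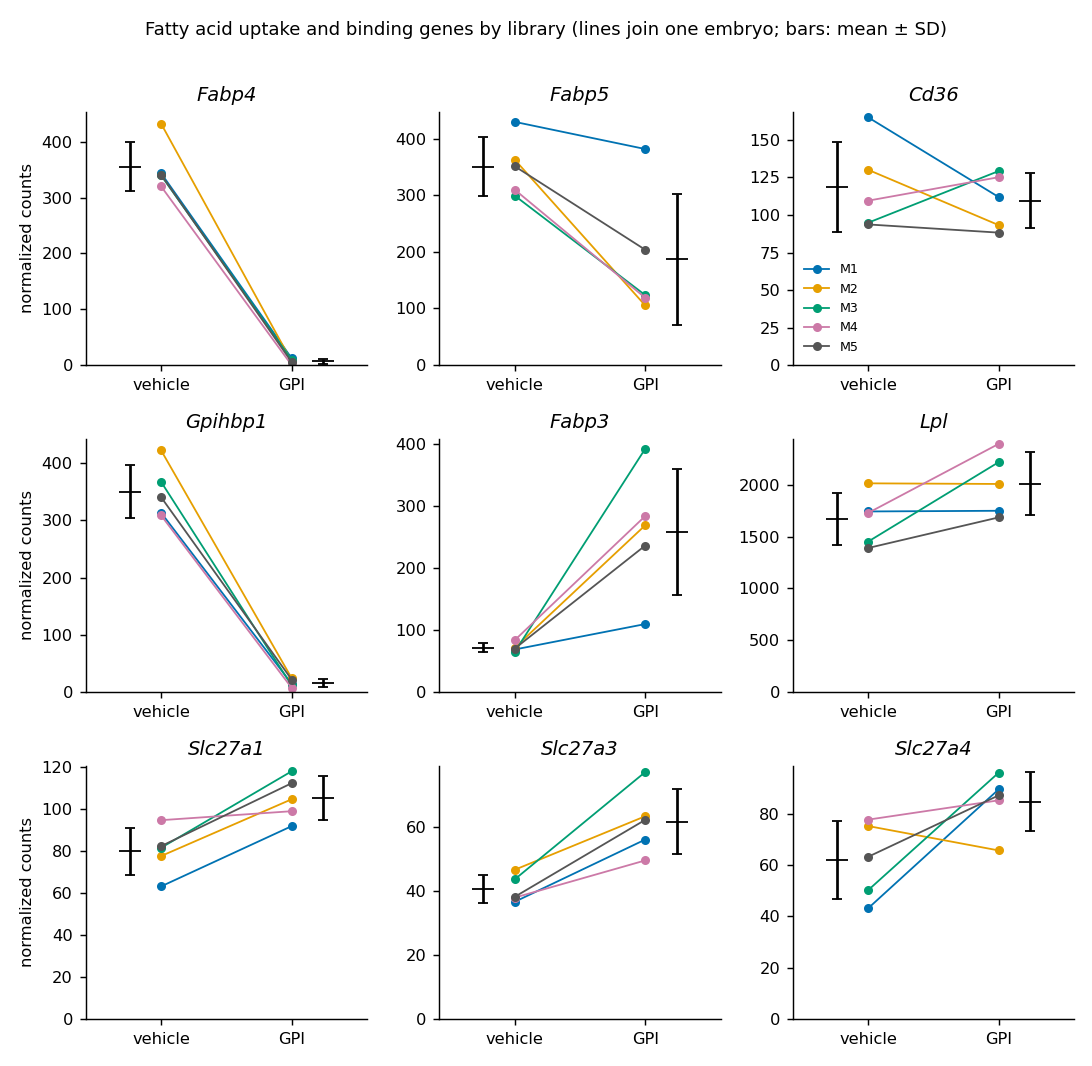
Normalized counts (y axes, each from 0) of the 9 genes in vehicle and GPI libraries, with a line joining both gonads of an embryo (M1 to M5, colours) and black bars for mean ± SD (n = 5). Under GPI, Fabp4 and Gpihbp1 are at most 12.3 and 24.3, Fabp3 is at least 110, and Fabp5 is at 382 in M1.

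Among parenchymal genes, Fabp3 was higher in every GPI library and Lpl and Slc27a1 were slightly higher on average, with overlap. Fabp3, the heart-type binding protein, had 68.7, 71.6, 64.8, 83.7 and 70.1 normalized counts in vehicle libraries M1 to M5. Under GPI it had 110, 269, 393, 284 and 236. The vehicle libraries lay close together, the GPI libraries were spread widely above them, and M1 was the lowest of these. The log2 fold change was 1.76 ± 0.22, or 3.39-fold higher, and ran from 1.53 (without M3) to 1.98 (without M1) with an embryo left out. Of the tested genes, 72 had a higher value.

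Lpl, the secreted lipase, had 1743, 2014, 1453, 1729 and 1390 normalized counts in the vehicle libraries. Under GPI it had 1749, 2008, 2219, 2396 and 1686. M1 and M2 had nearly equal values in both gonads, and the other embryos were higher under GPI by log2 ratios of 0.28 to 0.61. The log2 fold change was 0.27 ± 0.09. Slc27a1, a transport protein that also activates long-chain acids, had 63.1 to 94.6 normalized counts in vehicle and 91.8 to 118 in GPI, and was higher under GPI in 5 of 5 embryos with a log2 fold change of 0.40 ± 0.17.

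The transporters known from both compartments resembled the parenchymal genes. Slc27a3 had 36.5, 46.5, 43.5, 37.9 and 38.1 normalized counts in vehicle libraries M1 to M5 and 56.0, 63.2, 77.0, 49.4 and 62.1 under GPI. Each GPI library lay above each vehicle library, though by little, and the log2 fold change was 0.59 ± 0.23. Slc27a4 had 43.2 to 77.7 normalized counts in vehicle and 65.7 to 96.0 in GPI. M2 was lower under GPI and the other 4 embryos were higher, and the log2 fold change was 0.47 ± 0.22.

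In the fit over all genes by edgeR's quasi-likelihood test, 3198 of 13941 genes (22.9%) passed a Benjamini-Hochberg false discovery rate of 0.05, 1544 (11.1%) higher and 1654 (11.9%) lower. Members in this set were Fabp4, Fabp5 and Gpihbp1 on the lower side and Fabp3 on the higher side, 4 of 9. Since the 9 were chosen with this contrast known, nothing is read from that count. GPI lay below vehicle without overlap for 1261 tested genes (9.05%), Fabp4 and Gpihbp1 among them, and above for 986 (7.07%), Fabp3 and Slc27a3 among them, and nothing is read from these counts either.

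Within each embryo, the median log2 ratio of the vessel-type genes was -2.40, -2.89, -3.02, -3.21 and -2.31 in M1 to M5. That of the parenchymal genes was 0.53, 0.42, 0.61, 0.47 and 0.44. The difference between both medians ran from -3.68 in M4 to -2.75 in M5, with a mean of -3.26 ± 0.41 (SD, n = 5). The vessel-type median averages unlike genes, since Fabp4 and Gpihbp1 lay far below it in each embryo while Fabp5 and Cd36 lay above it. With Slc27a3 and Slc27a4 counted as vessel-type, the difference shrank to -1.08.

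Endothelial cells as a whole were measured with a list of 20 marker genes, and all 20 fell, each in 5 of 5 embryos (edgeR quasi-likelihood test, Benjamini-Hochberg adjusted). Their log2 fold changes ran from -4.16 for Pecam1 to -1.70 for Eng, with a median of -2.93 beside 0.02 over all tested genes. The values were -3.63 for Cdh5 (VE-cadherin), -2.44 for Kdr (a VEGF receptor) and -3.23 for Erg, the most abundant marker per kilobase. Plvap was at 0 in the GPI library of M5, and no other marker was at 0 in any library. Summed over the list, vehicle libraries M1 to M5 had 11055, 11584, 11157, 12554 and 11591 normalized counts and the GPI libraries 1614, 1845, 1269, 1005 and 1192. In bulk RNA, fewer cells of a type and less RNA per cell cannot be told apart.

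Set beside these markers, the vessel-type genes fell into separate places. Fabp4 and Gpihbp1 had lower log2 fold changes than each of the 20 markers. For Gpihbp1 the gap to the lowest marker was small, -4.48 ± 0.20 (SE) beside -4.16 ± 0.15 for Pecam1. Flt1, a receptor of VEGF-B described below and not on this list, was lower than Gpihbp1, at -5.18 ± 0.18. Within embryos, Fabp4 differed from the median marker by -3.33 (M2) to -1.99 (M3) log2 units in the 4 embryos with Fabp4 reads under GPI, while the value of M4, without a read, is set by the prior count. Gpihbp1 differed from it by -2.06 (M1) to -0.84 (M5). Fabp5 and Cd36 had higher values than all 20 markers, with mean differences from the median marker of 1.66 ± 0.64 and 2.63 ± 0.82 log2 units (SD, n = 5). These differences were not tested, since the choice of the 9 genes used the same contrast.

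**Figure D2:**
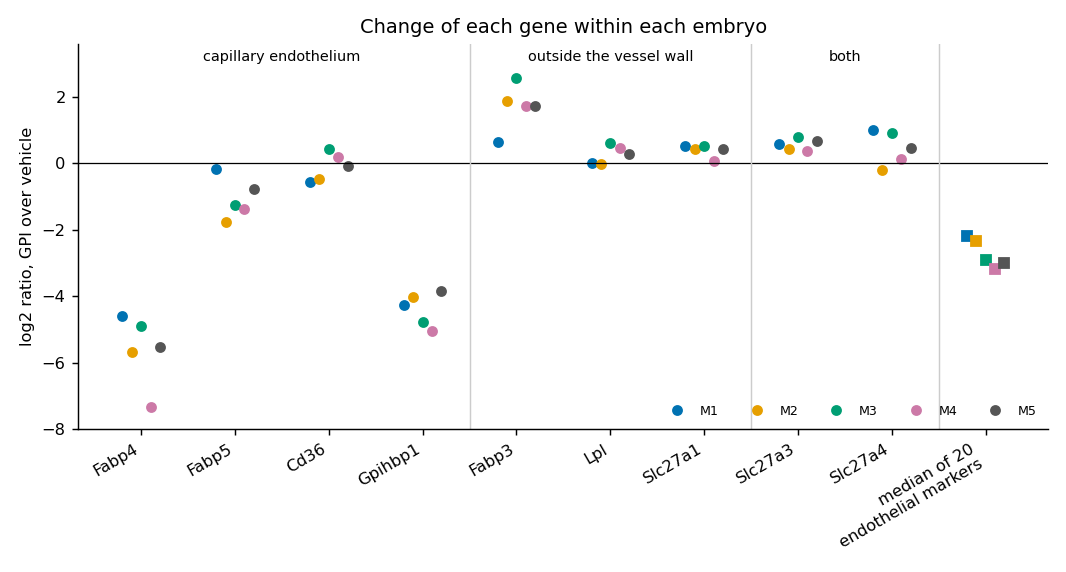
Log2 ratio of GPI over vehicle within each embryo (y axis) for each gene and, as squares, for the median of 20 endothelial markers; colours are the 5 embryos. Fabp4 and Gpihbp1 lie under the marker median in all 5 embryos (the Fabp4 point of M4, with no read under GPI, is set by the prior count of 2), Fabp5 and Cd36 lie above it, and the genes at the right lie near or above 0.

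Other cell types that can express these genes also differed between treatments, and their part in the values above was not tested. Of 14 macrophage markers, 11 were tested and 10 fell, with log2 fold changes of -2.22 for Csf1r, -0.76 for Cd68 and -1.65 for Lyz2, the most abundant per kilobase, while Adgre1 was at -0.26 ± 0.25. The summed macrophage level was 982 to 1307 normalized counts in vehicle and 282 to 575 in GPI. Of 8 platelet and megakaryocyte markers, 3 were tested and Pf4, the most abundant per kilobase, fell (log2 fold change -2.66), with sums of 55.4 to 210 and 32.4 to 72.6, and Itga2b was at 0.17 ± 0.57. Gp1ba, with more normalized counts than Pf4 (38.0 ± 17.2 and 28.6 ± 10.2), was at -0.38 ± 0.41 and did not pass. Ppbp averaged 19.1 and 2.33 normalized counts and was not tested. Among 10 erythroid markers 9 fell, with log2 fold changes of -1.59 for Hba-a1, -1.49 for Hba-a2, -4.13 for Hbb-bs and -0.98 for Hbb-y, the most abundant per kilobase, and with sums of 2114 to 5443 and 957 to 2501. Of the adipocyte markers, Adipoq, Cidec and Cfd had at most 2.10 normalized counts in any library, Retn averaged 1.91 and 2.32, Lep had none, and Plin1, the most abundant per kilobase and the only one of 6 tested, had 3.32 to 72.8 in vehicle and 17.1 to 54.7 in GPI. The adipocyte sums were 3.32 to 82.3 and 17.1 to 56.8.

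Of 10 pericyte and smooth muscle markers, 6 of 9 tested fell, with log2 fold changes of -1.55 for Pdgfrb, -4.32 for Rgs5 and -1.44 for Cspg4. Sums were 9945 to 11352 and 2554 to 3315 normalized counts, and Acta2, the most abundant per kilobase, was at -0.12 ± 0.11. The smooth muscle markers Myh11 and Tagln were at -0.15 ± 0.12 and -0.09 ± 0.23, and neither they nor Acta2 passed. Abcc9 held the most normalized counts of this list in vehicle, 5342 ± 347, and had 352 ± 42.1 in GPI (log2 fold change -3.93). Steroid-producing fetal Leydig cells were represented by 7 markers, of which all 6 tested rose, Cyp17a1 by 3.90, Cyp11a1 by 2.90, Star by 0.79 and Hsd3b1, the most abundant per kilobase, by 1.75. Their summed level was 1327 to 5659 in vehicle and 10247 to 19062 in GPI. For Sertoli cells, the supporting cells of the testis, 7 of 10 markers rose, including Sox9 by 0.59, Dhh by 0.92 and Aard, the most abundant per kilobase, by 0.54, while Amh was at 0.08 ± 0.22, and sums were 3506 to 5796 and 4268 to 10078. The lowest Sertoli sum under GPI, 4268, was that of M1, inside the vehicle range, and the other 4 GPI libraries had 7836 to 10078. M1 also had the highest Fabp5 and the lowest Fabp3 of the GPI libraries, and the part of Sertoli cells in this was not tested. Germ cell markers fell in 5 of 7 tested of 11, with -2.72 for Ddx4, -4.62 for Dazl and -5.20 for Dppa3, the most abundant per kilobase, while Dnd1 was at -0.50 ± 0.45, with sums of 805 to 2325 and 120 to 290. Of 6 pre-granulosa markers, 5 were tested, Wnt4, with the most normalized counts, fell (-0.78) and Bmp2 rose (0.61), while Foxl2, Fst and Rspo1, the most abundant per kilobase, were at -0.54 ± 0.43, -0.19 ± 0.21 and -0.13 ± 0.12, and sums were 1523 to 1867 and 986 to 1490. Of 7 mesonephric markers 2 were tested, with Pax8 at -0.28 ± 0.27 and Emx2, the most abundant per kilobase, lower by a log2 fold change of -0.73 ± 0.13, while Pax2 and Lhx1 averaged 10.1 and 6.35 normalized counts in vehicle and 9.74 and 0.486 in GPI. The mesonephric sums were 850 to 1729 and 577 to 996. Calls for these markers come from the same edgeR test across all genes.

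The order of the 9 genes by level was compared per kilobase of the longest annotated transcript. In vehicle libraries Lpl led with 405 ± 61.1 normalized counts per kb (mean ± SD, n = 5), before Gpihbp1 with 212 ± 28.2 and Fabp5 with 108 ± 16.0. Fabp3 (87.2 ± 8.66) and Fabp4 (83.9 ± 10.4) followed, and the ranges of Fabp5, Fabp3 and Fabp4 overlapped from each to the next. Cd36 (34.9 ± 8.76) overlapped Slc27a1 (24.9 ± 3.53), and Slc27a3 (16.3 ± 1.73) overlapped Slc27a4 (15.3 ± 3.73) at the low end. In GPI libraries Lpl (489 ± 73.5) and Fabp3 (314 ± 124) were highest and overlapped, Fabp5 (57.6 ± 35.7) came next, and its range overlapped that of Slc27a1 (32.8 ± 3.24). Cd36 (32.2 ± 5.43), Slc27a3 (24.8 ± 4.12) and Slc27a4 (20.9 ± 2.81) each overlapped the gene before, and Gpihbp1 (9.62 ± 4.29) and Fabp4 (1.60 ± 1.10) were lowest without overlap. The longest transcripts of Fabp4 and Fabp5 (4231 and 3238 bases) retain an intron. By the longest coding transcript (896 and 987 bases), a length chosen after the values were seen, the vehicle levels of Fabp4 and Fabp5 were 396 ± 49.1 and 355 ± 52.4 per kb, overlapping Lpl and above Gpihbp1. By that length Fabp4 was at 7.53 ± 5.17 per kb under GPI and overlapped Gpihbp1.

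**Figure D3:**
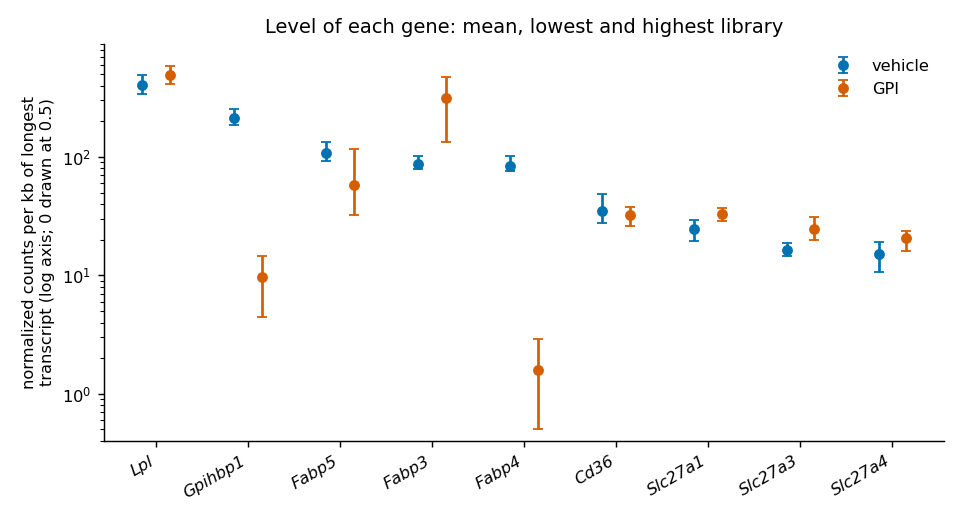
Normalized counts per kilobase of the longest transcript (log axis) for each gene in vehicle and GPI libraries; points are means and bars run from the lowest to the highest of 5 libraries, with 0 drawn at 0.5. Lpl is highest in both treatments at 405 and 489, Fabp3 moves to 314, and Gpihbp1 and Fabp4 move to the low end at 9.62 and 1.60.

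Among the binding proteins, the shares of Fabp4 and Fabp3 differed between treatments, and that of Fabp5 varied among the GPI libraries. Per kilobase of the longest coding transcript, Fabp4 made up 42.5, 51.5, 49.8, 46.2 and 46.3% of the summed level of Fabp3, Fabp4 and Fabp5 in vehicle libraries M1 to M5. Fabp3 made up 9.25 to 13.2% there. Under GPI the Fabp4 share was 2.57, 1.64, 1.73, 0 and 1.22%, and the Fabp3 share was 25.0, 74.1, 77.8, 74.1 and 57.5%. By this length Fabp3 was the leading binding protein in the GPI libraries of M2 to M5, and Fabp5, with 72.5%, in that of M1. The Fabp5 share was 39.2 to 48.3% in vehicle and 20.4 to 41.3% in the GPI libraries of M2 to M5. The summed level was 839 ± 78.0 per kb in vehicle and 511 ± 67.1 in GPI (SD, n = 5). The shares depend on the length used. With the longest transcripts of any kind the mean Fabp3 share was 31.3% in vehicle and 81.5% in GPI, and Fabp3 also led in the GPI library of M1, with 133 normalized counts per kb beside 118 for Fabp5.

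**Figure D4:**
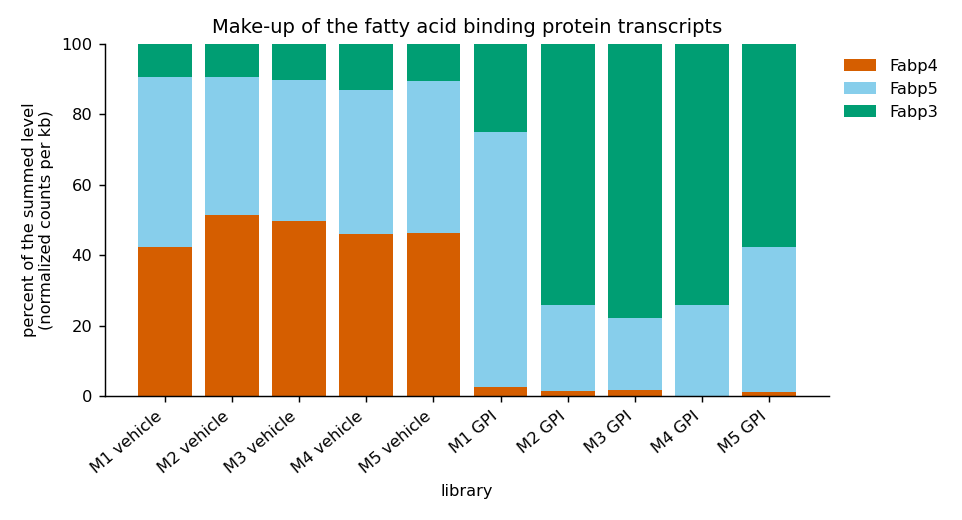
Percent of the summed level of Fabp4, Fabp5 and Fabp3 (normalized counts per kb of the longest coding transcript) in each of the 10 libraries. Fabp4 takes 42.5 to 51.5% in vehicle and at most 2.57% in GPI, and Fabp3 takes 57.5 to 77.8% in the GPI libraries other than M1, which has 25.0%.

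The lipase and its anchor moved apart. Lpl exceeded Gpihbp1 by factors of 2.23, 1.91, 1.59, 2.25 and 1.64 per kb in vehicle libraries M1 to M5. Under GPI the factors were 48.3, 33.1, 78.1, 131 and 31.1. The lowest GPI value was more than 10 times the highest vehicle value, with Lpl itself at a like or slightly higher level.

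Genes of lipoprotein handling other than the 9 were tested. Of 22 genes of the LPL system and lipoprotein receptors, 18 were tested, 6 rose and 1 fell (edgeR quasi-likelihood test, Benjamini-Hochberg adjustment). Over all tested genes 11.1% rose and 11.9% fell, and the median log2 fold change was 0.20 in the list and 0.02 over all tested genes. Lipg, a lipase related to Lpl and known as endothelial lipase, had 44.3, 72.8, 88.2, 56.8 and 106 normalized counts in vehicle libraries M1 to M5 and 134, 269, 260, 356 and 278 under GPI. Each GPI library lay above each vehicle library, while the endothelial markers fell. Its log2 fold change was 1.81 ± 0.18, higher in 5 of 5 embryos (adjusted p = 8.3e-06 by edgeR). Scarb1, the receptor of high density lipoprotein, rose by 1.05 ± 0.11 (adjusted p = 8.78e-06 by edgeR), and Sel1l, which aids the folding and export of lipoprotein lipase, by 0.78 ± 0.08 (adjusted p = 6.34e-06 by edgeR), both in 5 of 5 embryos and without overlap.

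Vldlr, a receptor for triglyceride-rich particles, had 1467, 1064, 966, 972 and 1120 in vehicle and 2133, 759, 675, 589 and 560 in GPI, so that it was higher in M1 and lower in the other embryos. It did not pass with all embryos (log2 fold change -0.43 ± 0.16, adjusted p = 0.0762 by edgeR), and passed without M1 (-0.70, adjusted p = 0.000181 by edgeR) and without the low-count filter. Lrp8 rose by 0.45 ± 0.09, and Apoe, an apolipoprotein that Vldlr and Lrp8 bind, fell in 5 of 5 embryos (log2 fold change -0.61). Pcsk5 passed with a log2 fold change of 0.23 ± 0.08, in 5 of 5 embryos, but the call held in 3 of 12 alternatives and was lost when any of M1 to M4 was left out (highest adjusted p = 0.248 by edgeR, without M3). Lmf1, which Lpl needs to fold, and its paralogue Lmf2 were at 0.17 ± 0.18 and 0.00 ± 0.14, and Angptl4, an inhibitor of Lpl, and Angptl8 at -0.18 ± 0.19 and -1.08 ± 0.66, none of which passed.

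Acyl-CoA synthetases activate fatty acids and so hold them in the cell. Of 10 acyl-CoA synthetase and further transport protein genes 7 were tested, 4 rose and 1 fell (edgeR quasi-likelihood test, Benjamini-Hochberg adjustment; 11.1% and 11.9% over all tested genes), with a median log2 fold change of 0.50. Acsbg1 rose by 1.51 ± 0.25 and Acsl4, an enzyme that favours arachidonic acid, by 0.60 ± 0.09, each in 5 of 5 embryos. The GPI library of M1 had 2768 normalized counts of Acsl4, inside the vehicle range of 2545 to 3127. Acsl5 fell in 5 of 5 embryos (log2 fold change -0.50). Acsl3 (0.34 ± 0.10, higher in 4 of 5 embryos) and Slc27a6 (0.56 ± 0.14, higher in 5 of 5) passed with all embryos. In M1, Slc27a6 was nearly equal in both gonads, at 155 normalized counts in vehicle and 156 in GPI. The call of Acsl3 was lost without M2, M3 or M4 and that of Slc27a6 without M3 or M4, with highest adjusted p of 0.0937 and 0.0637 by edgeR. Slc27a2 and Slc27a5 were too low to be tested, at means of at most 6.29 normalized counts.

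Of 19 other intracellular lipid binding proteins 8 were tested, 2 rose and 3 fell, beside 11.1% and 11.9% of all tested genes, with a median log2 fold change of 0.16. Dbi, the acyl-CoA binding protein, had 453, 562, 537, 662 and 559 normalized counts in vehicle libraries M1 to M5 and 548, 1071, 1014, 1247 and 1116 in GPI, and rose by 0.81 ± 0.11 in 5 of 5 embryos (adjusted p = 8.2e-05 by edgeR's quasi-likelihood test). M1 again had the lowest GPI value, inside the vehicle range, and the other 4 lay above that range. Fabp7, the brain-type binding protein, fell in 5 of 5 embryos (-0.96), from 60.1 ± 19.2 to 31.5 ± 13.3 normalized counts, and its call was lost without M1, M2 or M3 (highest adjusted p = 0.0922 by edgeR). Acbd5 (0.29 ± 0.08) and Acbd3 (-0.33 ± 0.10) passed with all embryos, with calls lost without M3 or M4 and without M2, M4 or M5 (highest adjusted p = 0.0814 and 0.0884 by edgeR). Fabp1 and Pmp2 had no read, and Fabp2, Fabp6, Fabp9 and Fabp12 had at most 8.72 normalized counts in any library.

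Regulators of endothelial fatty acid transport include growth factor receptors, transcription factors and proteins of caveolae. All 24 were tested, 4 rose and 10 fell (edgeR quasi-likelihood test, Benjamini-Hochberg adjustment), beside 11.1% higher and 11.9% lower over all tested genes, with a median log2 fold change of -0.21. Flt1, the receptor through which VEGF-B raises endothelial fatty acid uptake, had 790, 655, 634, 776 and 672 normalized counts in vehicle libraries and 30.2, 23.5, 14.3, 10.5 and 18.5 in GPI libraries. Its log2 fold change was -5.18 in 5 of 5 embryos, a value between those of Fabp4 and Gpihbp1, while its ligand Vegfb was higher with a log2 fold change of 0.38 ± 0.11. The co-receptor Nrp1 fell as well (-0.85). Meox2 and Tcf15, transcription factors of capillary endothelium that raise fatty acid uptake, fell in 5 of 5 embryos with log2 fold changes of -2.84 and -1.83, and Apln, Dll4 and Notch1 with -2.80, -2.91 and -1.45. With an embryo left out, Meox2 ran from -3.79 (without M5) to -2.40 (without M2).

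Caveolae, the membrane pits of endothelium in which Cd36 resides, gave a mixed picture. Cav2, Ehd2 and Cavin1 fell in 5 of 5 embryos each, with log2 fold changes of -1.93, -1.62 and -0.69, whereas Cav1 and Cavin2 were at -0.06 ± 0.09 and -0.11 ± 0.13 and did not pass. Of the nuclear receptors that bind fatty acids and their partners, Ppara rose by 1.51 ± 0.21 in 5 of 5 embryos (adjusted p = 0.000127 by edgeR's quasi-likelihood test), from 39.9, 38.2, 60.3, 43.8 and 83.0 normalized counts to 125, 165, 155, 149 and 143, without overlap. Pparg, which drives Fabp4 and Cd36 in fat cells, rose by 0.93 ± 0.30 from 23.6 ± 5.66 to 46.2 ± 17.9 normalized counts, and Ppargc1a by 0.40 ± 0.11, while Ppard and Rxra were at -0.31 ± 0.22 and 0.10 ± 0.09. The call of Pparg was lost without M1, M2, M3 or M5, that of Vegfb without M1, M3, M4 or M5 and that of Ppargc1a without M3, M4 or M5 (highest adjusted p = 0.154, 0.12 and 0.0866 by edgeR). Without TMM scaling the calls of Pparg and Vegfb were lost too. Mfsd2a was at 0.70 ± 0.41, passed without M1 (1.18, adjusted p = 0.0123 by edgeR) and was at 0.28 without M4. Klf4 was at 0.33 ± 0.14, passed without M2 (0.48, adjusted p = 0.0192 by edgeR) and was at 0.21 without M1. Neither passed with all embryos.

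**Figure D5:**
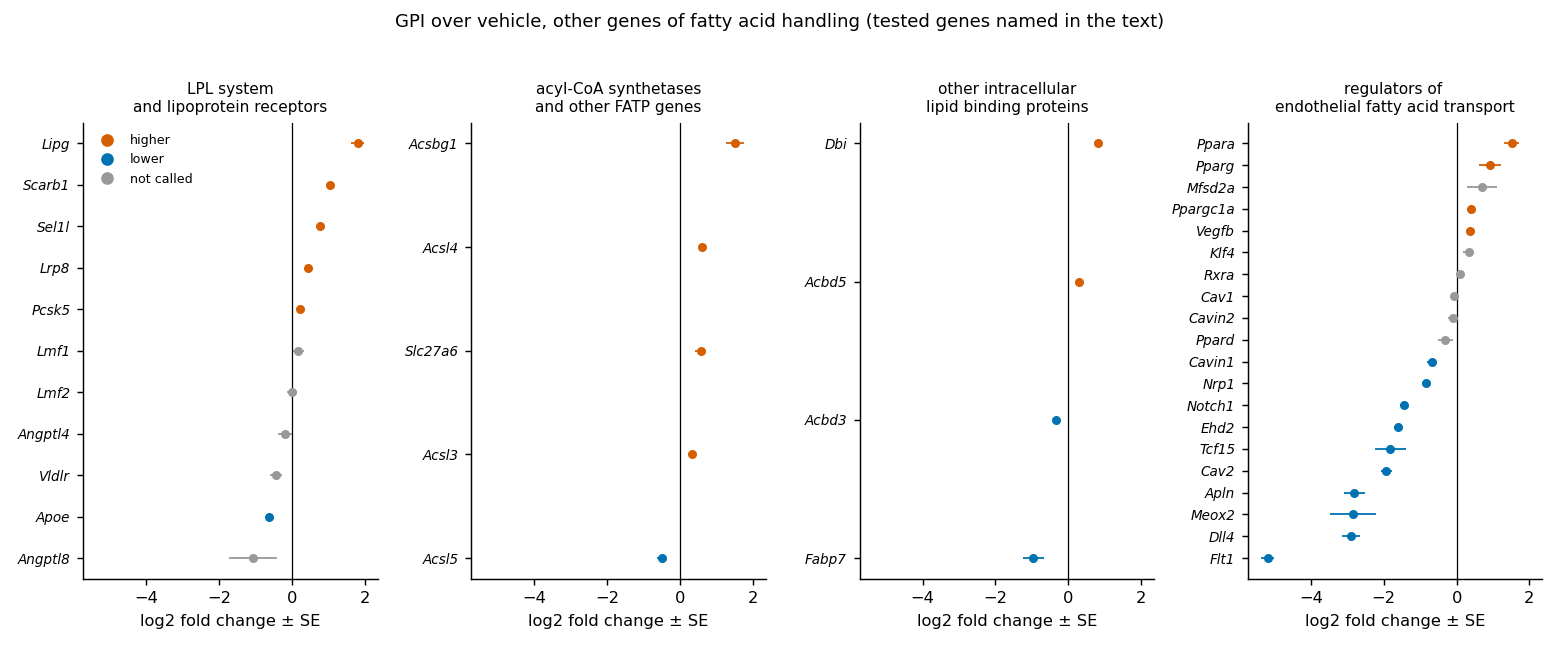
Log2 fold change of GPI over vehicle with its SE (x axes) for the tested genes of the 4 lists that the text names; orange and blue mark genes that passed edgeR's test as higher or lower and grey those that did not. Lipg leads the LPL system at 1.81, Acsbg1 the synthetases at 1.51, and Flt1 is the lowest regulator at -5.18.

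Across the 4 lists, 57 of 75 genes were tested, 16 rose and 15 fell, beside 11.1% higher and 11.9% lower over all tested genes, with a median log2 fold change of 0.03 beside 0.02 over all tested genes. Counts and medians cover the whole lists. The number that rose was 10 without M3 or without M4, and over all tested genes 1544 with all embryos, 969 without M3 and 1024 without M4. The lists hold endothelial genes, so that a fall of a regulator and the fall of the endothelial markers cannot be told apart here.

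Differences between embryos are a contrast other than the one in view when the 9 genes were chosen. Both tests share the same estimate of residual variation, so they are not fully independent. An F test of embryo in the same edgeR quasi-likelihood fit called 0 of 13941 genes (0%) at an FDR of 0.05, and 971 genes (6.97%) had an unadjusted p under 0.05. DESeq2 called 145 genes and limma-voom 4. Of the 9 members edgeR called 0, and 1, Fabp5, was under 0.05 unadjusted (F = 5.61, unadjusted p = 0.00734, adjusted p = 0.422). DESeq2 called Fabp5 as well, and limma-voom called no member. Both Fabp5 values of M1, 430 in vehicle and 382 in GPI, were the highest of their group.

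For each member, the 3 tested genes whose log2 levels followed it most closely over the 10 libraries were found by Pearson correlation, a description in which the treatment difference is shared by all points. Gpihbp1 was followed by Adgrf5, Cdh5 and Fam43a (r = 0.997, 0.996 and 0.996), and Fabp4 by Ecscr, Eng and Tns1 (r = 0.993, 0.992 and 0.992). Cdh5, Ecscr and Eng are among the endothelial markers. Fabp5 was followed by Mtss1, Dubr and Rora (r = 0.967, 0.965 and 0.957) and Fabp3 by Neo1, Ptprd and Tmem144 (r = 0.979, 0.978 and 0.976). None of these 6 is on the lists used here. Cd36 was followed by Zbtb45, Hes6 and Ankrd34a (r = 0.938, 0.926 and 0.867) and Lpl by Uhrf1bp1l, Palmd and Mkks (r = 0.976, 0.929 and 0.917).

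Slc27a1 was followed by Pde1c, Nabp1 and Mrps22 (r = 0.957, 0.944 and 0.944), Slc27a3 by Dnajc27, Efna5 and ND2 (r = 0.979, 0.956 and 0.946) and Slc27a4 by Sec11c, Ptpn11 and Kdm5d (r = 0.944 each). Between members, Fabp4 and Gpihbp1 followed each other with r = 0.98 over the 10 libraries, and Fabp5 and Fabp3 ran opposite with r = -0.92. After the mean of each treatment was taken out, these values were 0.56 and -0.86. M1 under GPI had the highest Fabp5 and the lowest Fabp3, and the part of M1 in the latter value was not tested.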

How the data were processed

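The deposited counts are whole read pairs per RefSeq gene, which the authors obtained by STAR 2.5 alignment to mm10 and featureCounts (Subread 1.5.0-p1), without regard to strand. Of 24470 entries, 13941 passed edgeR's filterByExpr (minimum count 10, minimum total 15). Counts were scaled by TMM and tested with edgeR 4.0.16 (quasi-likelihood, R 4.3.3) with embryo as a block and treatment, and p-values were adjusted by Benjamini-Hochberg across the genes tested. Log2 ratios within embryos used TMM-scaled log2 levels with a prior count of 2. Lengths are from GENCODE M21, and copies were sought with BLAST 2.17.0. Alternatives were DESeq2 1.42.0, limma 3.58.1 (voom), other scalings and filters, no block, each embryo left out, other lengths and a prior count of 0.5.

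The labels give both gonads of an embryo the same animal, which is the source of the pairing. Deviations from the treatment means correlated by -0.04 to 0.16 between gonads of an embryo (mean 0.06). Replicates differed beyond sampling noise (chi-square of at least 6.42 per degree of freedom), and each is a separate embryo. The fit was tested on simulated data.

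The members and lists were chosen with earlier results of these data known. Genes named are every member, pathway genes that passed (a few are not reported here) or whose values are given, the most abundant and first 3 markers of each list, the 3 nearest genes per member, and overlapping neighbours. Further markers, the ratio of Lpl to Gpihbp1, the shares of binding proteins, the coding lengths, the cluster neighbours and the sequences shown were chosen after the values were seen.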

Additional observations from a re-analysis of the deposited data

Results flagged for a closer look

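Of 57 groups of 5 values examined (levels of the 9 genes and of the summed lists in each treatment, and log2 ratios of the 9 genes), 2 had a single embryo set far from the other 4, where chance sets about 1 in 20 groups apart. The vehicle library of M2 had 432 normalized counts of Fabp4, with the other 4 vehicle libraries at 320 to 343. The log2 ratio of Slc27a1 in M4 was 0.0624, with the other 4 embryos at 0.42 to 0.53.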

How the results depend on the processing

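The count of genes that passed GPI against vehicle stayed between 2311 and 3472 under all alternatives, that of higher genes between 969 and 1601 (969 to 1430 with an embryo left out, lowest without M3), and that of pathway genes between 24 and 31, of which higher ones numbered 10 to 14 with an embryo left out, 10 without M3 or without M4. All 20 endothelial markers passed except under a minimum of 10 counts in every library, where 15 could be tested and passed. Without the embryo block 3108 genes and 30 pathway genes passed, against 3198 and 31 with pairing. No pathway or marker gene that passed changed sign under an alternative. Of 1665 values under alternatives, a call was lost in 45 and gained in 5, and genes near 0 that did not pass, such as Lmf2, changed sign in some. The fold change of each member moved by less than 1 SD between embryos in each setting that could fit it. A minimum of 10 counts in every library removed Fabp4 and Gpihbp1, and the vessel-type median became -0.59. The parenchymal median ran from 0.35 to 0.49 with an embryo left out, and the difference within embryos became -1.08 with Slc27a3 and Slc27a4 as vessel-type genes. Genes differing between embryos numbered 145 by DESeq2, 4 by limma-voom and 256 without the low-count filter, and members 1 by DESeq2 and 1 without the filter, against 0; the cause was not tested. By mean transcript length 5 of 9 vehicle ranks were kept. Of the 27 nearest genes, 5 were shared when deviations from the treatment mean were used. Depth limits Fabp4 under GPI, whose 5 libraries held 34 counts together.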
